A study of Homo sapiens with 12 samples.

Results

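Expression of 32 genes that respond to low oxygen, other than those of glycolysis, was followed in a line of human triple-negative breast cancer, MDA-MB-231, whose glucocorticoid receptor (GR) was mutant or wild type. The genes were chosen by symbol, as targets or regulators of the hypoxia-inducible factors (HIF), and are 32 of the 19907 genes measured. All 32 were found in every library, and all 32 passed the filter on low values. RNA from 12 libraries was sequenced, 3 in each of 4 groups: S134A-GR cells given dexamethasone (Dex), S134A-GR cells given vehicle, WT-GR cells given Dex and WT-GR cells given vehicle. S134A-GR carries alanine in place of the serine that can be phosphorylated at that position. Dex, a synthetic agonist of the receptor, was given at 1 µM for 6 h. All 4 groups had first been starved of serum for 18 h in IMEM with 1% DCC. No label names a low-oxygen treatment, so that every comparison is one of Dex or genotype. How the receptors were expressed, whether each line was 1 clone and whether the replicates were separate cultures is not given in the sources used here, so that a difference between the genotypes cannot be told apart from other differences between these cell lines, and p-values measure the spread between these libraries only.

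In well-oxygenated cells, prolyl hydroxylases of the EGLN family use oxygen to modify the alpha subunits of HIF, and VHL then directs those subunits to destruction. When oxygen runs short the alpha subunits persist, pair with ARNT and bind DNA at hypoxia response elements. The letters ACGTG are a form of the core of that element, but not the only form. Their targets include genes of pH control, mitophagy, collagen modification and secreted factors, and also EGLN1, EGLN3 and CITED2, which act back on HIF. Dex-bound GR enters the nucleus and raises or lowers the transcription of its own targets.

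Promoter windows of 300 bases, 250 before and 50 after a RefSeq transcript start (GRCh38.p14), were held for 25 of the 32 genes. The letters ACGTG or, on the other strand, CACGT were searched, and overlapping matches, as in CACGTG, were counted as 1 site. Of the 25 genes 16 (64%) had at least 1 site, against 3995 of the 13386 measured genes with a window (29.8%), and 11 (44%) had the palindrome CACGTG, against 1515 (11.3%). The glucocorticoid half-sites AGAACA and TGTTCT, 3 bases apart in that order, were in no window of any gene, so that these exact letters do not tell the genes apart. The 250 bases before the start are shown for 6 genes whose values carry the results below, picked after those values were seen and all holding a site: CA9, BHLHE40, PLOD2 and BNIP3, which were lower in S134A-GR cells, PPFIA4, which fell with Dex, and CITED2, which rose with Dex. Capitals mark the sites, each sequence runs 5′ to 3′ on the gene's strand, and a site is a match of letters and no evidence of binding.
CA9 (chr9:35673678-35673927, plus strand): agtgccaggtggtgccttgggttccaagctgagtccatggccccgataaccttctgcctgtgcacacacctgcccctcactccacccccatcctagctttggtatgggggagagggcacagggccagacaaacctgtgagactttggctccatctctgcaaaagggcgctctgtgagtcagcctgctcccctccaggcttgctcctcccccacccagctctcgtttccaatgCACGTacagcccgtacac
BHLHE40 (chr3:4979187-4979436, plus strand): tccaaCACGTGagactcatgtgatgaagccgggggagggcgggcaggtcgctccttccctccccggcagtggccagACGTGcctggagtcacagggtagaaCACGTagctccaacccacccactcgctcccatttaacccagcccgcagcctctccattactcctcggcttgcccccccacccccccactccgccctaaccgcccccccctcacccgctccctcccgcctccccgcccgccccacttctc
PLOD2 (chr3:146161185-146161434, minus strand): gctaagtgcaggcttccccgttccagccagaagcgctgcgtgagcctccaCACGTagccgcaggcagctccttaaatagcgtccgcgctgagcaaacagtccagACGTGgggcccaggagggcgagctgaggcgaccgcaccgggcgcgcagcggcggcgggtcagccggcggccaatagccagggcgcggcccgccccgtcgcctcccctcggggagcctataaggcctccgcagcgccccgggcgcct
BNIP3 (chr10:131981924-131982173, minus strand): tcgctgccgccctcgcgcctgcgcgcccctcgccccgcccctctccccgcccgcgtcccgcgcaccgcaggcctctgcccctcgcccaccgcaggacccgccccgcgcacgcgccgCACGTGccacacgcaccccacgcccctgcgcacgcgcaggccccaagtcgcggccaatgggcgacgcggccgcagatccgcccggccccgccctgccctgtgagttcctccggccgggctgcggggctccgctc
PPFIA4 (chr1:203026241-203026490, plus strand): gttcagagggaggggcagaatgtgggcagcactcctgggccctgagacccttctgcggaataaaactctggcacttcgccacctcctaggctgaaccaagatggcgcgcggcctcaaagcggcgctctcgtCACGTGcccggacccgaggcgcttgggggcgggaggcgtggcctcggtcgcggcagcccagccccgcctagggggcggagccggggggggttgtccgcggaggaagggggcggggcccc
CITED2 (chr6:139374649-139374898, minus strand): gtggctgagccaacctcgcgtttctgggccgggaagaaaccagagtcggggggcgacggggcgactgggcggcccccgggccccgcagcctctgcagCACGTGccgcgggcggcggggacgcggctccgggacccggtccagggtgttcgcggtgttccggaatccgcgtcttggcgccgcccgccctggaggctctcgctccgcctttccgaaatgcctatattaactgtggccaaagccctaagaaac

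BHLHE40 held 3 sites, PLOD2 held 2 and the other 4 genes held 1 each. In CA9 the site began 18 bases before the start, and in PPFIA4 and CITED2 the palindrome began 119 and 153 bases before it. CITED2 has other RefSeq starts, and their windows held no site. The 9 genes with a window but without ACGTG or CACGT were ADM, CA12, EGLN3, HIF1AN, IGFBP3, KDM3A, P4HA2, PLOD1 and TMEM45A. Other forms of the core of the hypoxia response element were not searched, so these genes may hold them. In GENCODE 29 (GRCh38), CA9 spans chr9:35673856-35681159, BHLHE40 chr3:4979116-4985323, PLOD2 chr3:146069440-146163653, BNIP3 chr10:131966455-131982013, PPFIA4 chr1:203026498-203078740 and CITED2 chr6:139371807-139374620. The gene with the largest fall, STC1, lies at chr8:23841915-23854807 and IGFBP3, which rose with Dex, at chr7:45912245-45921874.

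The libraries held 56362036 to 100559429 reads assigned to genes, recovered from the normalized values. WT-GR Dex replicates 2 and 3 stood apart in another way, with 193 and 210 genes at a single read against 352 to 409 in the other 10 libraries. Most results that depend on them are given with and without them. Gene names in the Dex libraries were shifted and were restored by line order, and every Dex value rests on that. The mesenchymal markers VIM, CD44, AXL, CAV1 and FOSL1 were high in all libraries, with VIM at 386419 ± 4575 normalized reads in S134A-GR Dex, 428768 ± 3301 in S134A-GR vehicle, 372616 ± 8124 in WT-GR Dex and 422927 ± 3379 in WT-GR vehicle (SD, n = 3). ESR1 averaged 0.583, 3.24, 0 and 0.702 normalized reads in S134A-GR Dex, S134A-GR vehicle, WT-GR Dex and WT-GR vehicle, and the luminal cadherin CDH1 2.45, 9.37, 12.4 and 6.24, while the luminal genes GATA3, FOXA1 and ERBB3 had means of 198 to 1489. Of the other lineages, the leukocyte gene PTPRC averaged 3.46 to 8.76 and the fibroblast gene DCN 0.628 to 13.6, whereas PDGFRB averaged 1715 to 2607 and COL1A1 931 to 2271. Some of these moved with the comparisons below. The endothelial gene CDH5 averaged 32.7, 19.0, 389 and 187 in S134A-GR Dex, S134A-GR vehicle, WT-GR Dex and WT-GR vehicle, and PECAM1 2026, 1141, 2536 and 1358. PECAM1 rose with Dex by 0.83 in S134A-GR and 0.90 in WT-GR cells on the log2 scale. Between S134A-GR and WT-GR cells CDH5 differed by -3.60 in Dex and -3.28 in vehicle, and COL1A1 by 0.96 and 0.99, all 4 called. The part of other cell types in the results was not tested, and in bulk RNA fewer expressing cells and less RNA per cell cannot be told apart.

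Levels of the 32 genes spanned a wide range. Per kilobase of merged exon, BNIP3 had 6340 ± 119 normalized reads in S134A-GR Dex, 7496 ± 311 in S134A-GR vehicle, 8064 ± 134.3 in WT-GR Dex and 8643 ± 572 in WT-GR vehicle (SD, n = 3). It stood highest in S134A-GR vehicle, WT-GR Dex and WT-GR vehicle. In S134A-GR Dex P4HA1 and PLOD1 stood above it, at 6550 ± 288 and 6541 ± 340 per kilobase, and the 3 genes do not differ beyond their spread. In S134A-GR vehicle P4HA1 and PLOD1 followed BNIP3 at 6853 ± 255 and 6600 ± 110. In WT-GR Dex cells PLOD1 followed BNIP3 at 7914 ± 518, within the spread of both. The lowest levels were those of EGLN2, at 1.00 ± 0.20 per kilobase in S134A-GR Dex, 1.63 ± 0.31 in S134A-GR vehicle, 1.54 ± 0.17 in WT-GR Dex and 0.35 ± 0.26 in WT-GR vehicle. NDUFA4L2 was also low, at 2.16 ± 1.08 per kilobase in S134A-GR Dex, 0.99 ± 0.82 in S134A-GR vehicle, 9.95 ± 1.19 in WT-GR Dex and 13.1 ± 3.51 in WT-GR vehicle. All other members were at 50.3 per kilobase or above in every group.

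Dex lowered more of these genes than it raised in both genotypes. Changes are given as log2 differences of normalized reads plus 1, Dex minus vehicle, and a gene was called at a Benjamini-Hochberg adjusted p under 0.05 in limma. In S134A-GR cells 15 fell, 3 rose and 14 were not called. Of all 15957 genes tested 15.7% were called, 7.99% higher and 7.76% lower, and of the 32 genes 56.2%. In WT-GR cells 13 fell, 8 rose and 11 were not called, against 27.9% of all genes called, 13.9% higher and 14% lower, and 65.6% of the 32. The median change was -0.16 in S134A-GR and -0.15 in WT-GR cells, with -0.02 over all genes in both. Dex values did not overlap vehicle values for 23 genes in S134A-GR cells, where 38.6% of all genes did not overlap, and for 23 in WT-GR cells, where 35.1% did not. Called in the same direction in both genotypes were 10 falls (EGLN1, EGLN3, VHL, BHLHE40, BHLHE41, KDM3A, CA12, STC1, NDRG1 and PPFIA4) and 3 rises (CITED2, IGFBP3 and RAB20). The share of all genes called alike in both genotypes was not counted. The counts depend on single libraries: the falls in S134A-GR cells numbered 8 without S134A-GR Dex replicate 3 and 9 without S134A-GR Veh replicate 2, and the rises in WT-GR cells numbered 4 without WT-GR Dex replicate 1 or WT-GR Veh replicate 2, and 5 without WT-GR Veh replicate 3. With scaling by library size only, 3 rose and 18 fell in WT-GR cells, so that 14.3% of the calls were higher in place of 38.1%, and over all genes 32.4% in place of 49.7%. Without WT-GR Dex replicates 2 and 3, 8 rose and 14 fell.

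**Figure D1:**
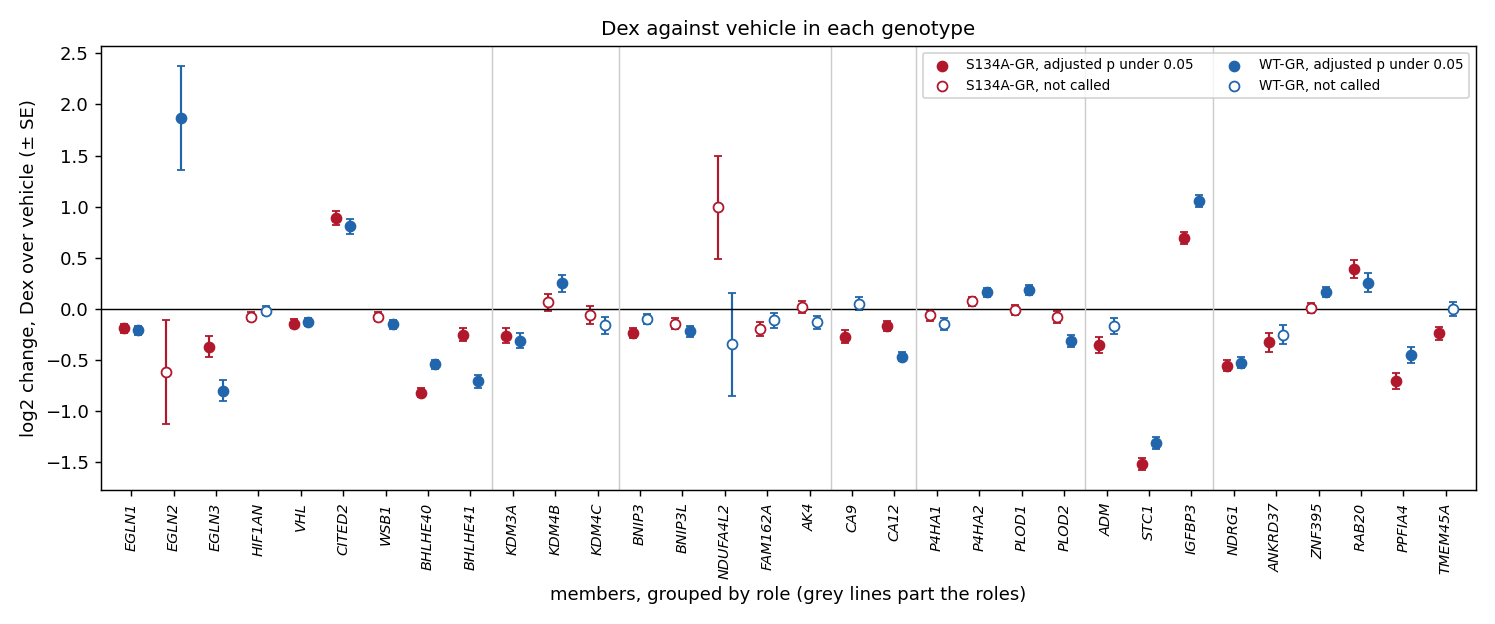
Log2 change with Dex against vehicle for each of the 32 genes (points, ± SE from limma), S134A-GR in red left of WT-GR in blue, with filled points for adjusted p under 0.05. STC1 lies lowest at -1.52 and -1.31, CITED2 and IGFBP3 lie above 0.6 in both genotypes, and EGLN2 and NDUFA4L2 have the widest errors.

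Among the oxygen sensors, EGLN1 and EGLN3 fell with Dex in both genotypes. EGLN1, the main HIF prolyl hydroxylase, had normalized read counts, the quantity given for every library below, of 5546, 5612 and 5663 in the S134A-GR Dex libraries, 6252, 6549.6 and 6446 in the S134A-GR vehicle libraries, 6399, 6599 and 6604 in the WT-GR Dex libraries and 7567, 7839.9 and 7326 in the WT-GR vehicle libraries. All Dex values lay below all vehicle values of the same genotype, by -0.19 ± 0.04 in S134A-GR (SE, limma adjusted p = 0.00467) and -0.21 ± 0.04 in WT-GR cells (adjusted p = 0.00194). EGLN3, a hydroxylase that is itself a HIF target, had 325, 401 and 385 in the S134A-GR Dex libraries, 466, 530.2 and 441 in the S134A-GR vehicle libraries, 452, 457 and 495 in the WT-GR Dex libraries and 756, 849.7 and 849.7 in the WT-GR vehicle libraries. Its Dex and vehicle values did not overlap in either genotype, and its change was -0.37 ± 0.11 in S134A-GR (adjusted p = 0.0286) and -0.80 ± 0.11 in WT-GR cells (adjusted p = 8.51e-05). The S134A-GR call for EGLN3 was lost without S134A-GR Veh replicate 1 or 2 or S134A-GR Dex replicate 1 or 3 (changes of -0.40 to -0.28, adjusted p of 0.0526 to 0.135).

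EGLN2, the remaining prolyl hydroxylase, was barely detected. It had 5.28, 7.88 and 6.59 in the S134A-GR Dex libraries, 8.48, 11.2 and 12.5 in the S134A-GR vehicle libraries, 10.2, 8.98 and 11.2 in the WT-GR Dex libraries and 1.63, 4.23 and 1.05 in the WT-GR vehicle libraries (normalized reads), from 21, 34, 26 and 6 reads summed over S134A-GR Dex, S134A-GR vehicle, WT-GR Dex and WT-GR vehicle. WT-GR vehicle was the low group, and the Dex values lay above vehicle in WT-GR cells (1.87 ± 0.51, limma adjusted p = 0.0154) and below it in S134A-GR cells (-0.62 ± 0.51, adjusted p = 0.524, not called). The WT-GR change is 0.83 with a pseudocount of 8, and the call was lost with library weights (1.10, adjusted p = 0.107). In GENCODE 29, 30.59% of the exon bases of EGLN2 are shared on its strand with the readthrough gene RAB4B-EGLN2 and with AC008537.1, and the rule used for reads in such bases is not given in the sources used here, so that these values are uncertain.

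VHL, the substrate receptor of the ubiquitin ligase that removes HIF alpha subunits, was slightly lower with Dex. It averaged 7153 ± 195 normalized reads in S134A-GR Dex and 7915 ± 224 in S134A-GR vehicle, 7941 ± 94.4 in WT-GR Dex and 8699 ± 223 in WT-GR vehicle (SD, n = 3), with changes of -0.15 and -0.13 in S134A-GR and WT-GR (limma adjusted p = 0.0265 and 0.0298). Both calls lay near the threshold. With only the compared groups in the fit the WT-GR change was not called (limma adjusted p = 0.134). In S134A-GR cells the VHL call was lost without S134A-GR Veh replicate 1 or 2 or S134A-GR Dex replicate 2 or 3 (adjusted p of 0.0626 to 0.13), and in WT-GR cells without replicate 1 or 2 of either WT-GR group (0.0544 to 0.116), with edgeR and TMM (0.0573) and without WT-GR Dex replicates 2 and 3 (0.0503). HIF1AN, the asparagine hydroxylase that blocks coactivator binding by HIF, had changes of -0.08 in S134A-GR and -0.02 in WT-GR and was not called. WSB1, a SOCS-box protein reported to direct VHL to degradation, changed by -0.08 in S134A-GR (not called) and -0.15 in WT-GR cells (adjusted p = 0.0182). The WT-GR call was lost without WT-GR Veh replicate 2 or WT-GR Dex replicate 1 (adjusted p = 0.0642 and 0.0567), and with only the compared groups in the fit (0.0922).

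CITED2, which competes with HIF alpha subunits for the coactivators CBP and p300, rose in both genotypes. It had 11517, 13490.4 and 13067 in the S134A-GR Dex libraries, 6952, 6821 and 6784 in the S134A-GR vehicle libraries, 12632, 12099 and 10449.9 in the WT-GR Dex libraries and 6599, 6881 and 6590.4 in the WT-GR vehicle libraries. Every Dex value exceeded every vehicle value, with rises of 0.89 ± 0.07 in S134A-GR (limma adjusted p = 5.18e-07) and 0.81 ± 0.07 in WT-GR cells (adjusted p = 1.42e-06). BHLHE40 and BHLHE41, transcriptional repressors that also act in the circadian clock, both fell. BHLHE40 had 6843, 6798 and 7104 in the S134A-GR Dex libraries, 12152, 12499 and 12025 in the S134A-GR vehicle libraries, 15950.3, 14678 and 14873 in the WT-GR Dex libraries and 21995, 22828 and 21481 in the WT-GR vehicle libraries. In each genotype the Dex values were the low ones, and the change was -0.82 ± 0.04 in S134A-GR (adjusted p = 8.31e-09) and -0.54 ± 0.04 in WT-GR cells (adjusted p = 6.28e-07). BHLHE41 had 1565, 1430.0 and 1490.0 in the S134A-GR Dex libraries, 1808, 1860.2 and 1685 in the S134A-GR vehicle libraries, 695, 646 and 686 in the WT-GR Dex libraries and 1103, 1109.7 and 1107 in the WT-GR vehicle libraries. Its WT-GR vehicle values lay close together, and it changed by -0.25 ± 0.06 in S134A-GR (adjusted p = 0.0152) and -0.71 ± 0.06 in WT-GR cells (adjusted p = 2.45e-06). The S134A-GR call for BHLHE41 was lost without S134A-GR Veh replicate 1 or 2 or S134A-GR Dex replicate 2 or 3 (adjusted p of 0.0541 to 0.0787).

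Of the secreted factors, STC1 fell and IGFBP3 rose with Dex in both genotypes. STC1, stanniocalcin, a secreted glycoprotein of calcium and phosphate handling, had 3861, 3545 and 3542 in the S134A-GR Dex libraries, 10082, 10848 and 10431 in the S134A-GR vehicle libraries, 2551, 2238 and 2564 in the WT-GR Dex libraries and 6092, 6196 and 5973 in the WT-GR vehicle libraries. It fell by 1.52 ± 0.06 in S134A-GR (limma adjusted p = 3.84e-10) and by 1.31 ± 0.06 in WT-GR cells (adjusted p = 1.75e-09), to 0.349 and 0.403 times the vehicle mean, with no overlap. IGFBP3, a carrier of insulin-like growth factors, had 8565, 9592 and 9381 in the S134A-GR Dex libraries, 5701, 5876 and 5449.5 in the S134A-GR vehicle libraries, 13895, 14062 and 14265 in the WT-GR Dex libraries and 6262, 6895 and 7246 in the WT-GR vehicle libraries. It rose by 0.69 ± 0.06 in S134A-GR (adjusted p = 1.06e-06) and 1.05 ± 0.06 in WT-GR cells (adjusted p = 1.57e-08), against the direction of most of the list. ADM, the vasodilator peptide adrenomedullin, had 1480.4, 1657 and 1349.7 in the S134A-GR Dex libraries, 1944, 1957 and 1825 in the S134A-GR vehicle libraries, 3590.2, 3589 and 3203 in the WT-GR Dex libraries and 3604, 3929 and 4120.2 in the WT-GR vehicle libraries. The Dex values of ADM lay below vehicle in both genotypes, with -0.36 ± 0.08 in S134A-GR (adjusted p = 0.00631) and -0.17 ± 0.08 in WT-GR cells (adjusted p = 0.135, not called).

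**Figure D2:**
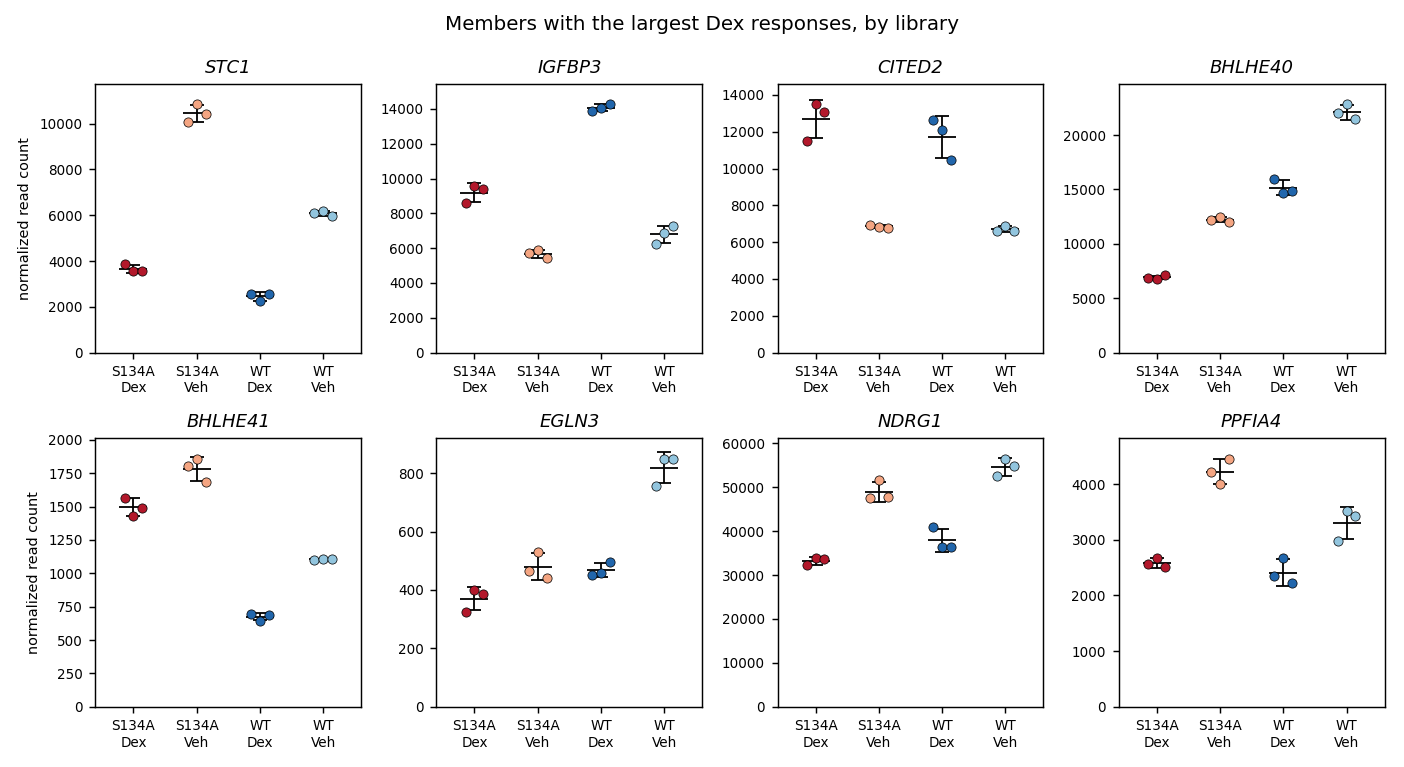
Normalized read counts in each library (points; bars, mean ± SD, n = 3) of 8 genes with large Dex responses, by group in the order S134A-GR Dex, S134A-GR vehicle, WT-GR Dex, WT-GR vehicle. In all 8 the Dex points of a genotype lie apart from its vehicle points, above for IGFBP3 and CITED2 and below for the other 6.

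Of the cell-surface carbonic anhydrases, which acidify the outside of the cell, CA12 fell in both genotypes. CA12 had 9614, 9154 and 9085 in the S134A-GR Dex libraries, 9995, 10666 and 10685 in the S134A-GR vehicle libraries, 14666, 14021 and 14815 in the WT-GR Dex libraries and 20061, 20835 and 19412 in the WT-GR vehicle libraries. Its change was -0.17 ± 0.04 in S134A-GR (limma adjusted p = 0.0185) and -0.47 ± 0.04 in WT-GR cells (adjusted p = 3.78e-06), and the S134A-GR call was lost without replicate 2 or 3 of either S134A-GR group (adjusted p of 0.0743 to 0.0873). CA9 had 4166, 4612 and 4374 in the S134A-GR Dex libraries, 5101, 5721 and 5096 in the S134A-GR vehicle libraries, 10719.5, 9786 and 9779 in the WT-GR Dex libraries and 9141, 9939 and 10217 in the WT-GR vehicle libraries. In S134A-GR cells the Dex values of CA9 lay below vehicle (-0.27 ± 0.06, adjusted p = 0.00799), and in WT-GR cells the groups overlapped (0.05 ± 0.06, adjusted p = 0.606). In GENCODE 29, 38.5% of the exon bases of CA9 and 35.23% of those of ANKRD37 overlap a gene on the other strand, and whether counting used strand is not given in the sources used here.

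Of the 3 histone demethylases, KDM3A was called lower with Dex in both genotypes and KDM4B higher in WT-GR cells. Of all genes 15.7% were called in S134A-GR and 27.9% in WT-GR cells. KDM3A, a histone lysine demethylase that HIF induces, averaged 6371 ± 509 in S134A-GR Dex and 7649 ± 332 in S134A-GR vehicle, 6330.0 ± 657 in WT-GR Dex and 7849 ± 166 in WT-GR vehicle (SD, n = 3). It changed by -0.27 in S134A-GR (limma adjusted p = 0.0224) and -0.32 in WT-GR cells (adjusted p = 0.00594), and the S134A-GR call was lost without S134A-GR Veh replicate 1 or 3 or S134A-GR Dex replicate 2 or 3 (adjusted p of 0.0726 to 0.109). KDM4B changed by 0.06 in S134A-GR (not called) and 0.25 in WT-GR cells (adjusted p = 0.0382). That call for KDM4B was lost without any 1 WT-GR vehicle library or without WT-GR Dex replicate 1 or 2 (adjusted p of 0.0705 to 0.152), and with the replicate number as a block (0.0661). It was also lost with only the compared groups in the fit (0.0654) and with scaling by library size only (0.0802). KDM4C, at -0.06 in S134A-GR and -0.16 in WT-GR, was not called. Without WT-GR Dex replicate 2 it was called lower in WT-GR cells (-0.25, limma adjusted p = 0.0445).

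Of the 5 mitochondrial genes only BNIP3 was called with Dex in S134A-GR cells, where 15.7% of all genes were called. In WT-GR cells only BNIP3L was called, where 27.9% of all genes were. BNIP3, an outer-membrane receptor of mitophagy, averaged 33758 ± 634 in S134A-GR Dex and 39914 ± 1657 in S134A-GR vehicle, 42942 ± 715 in WT-GR Dex and 46026 ± 3043 in WT-GR vehicle (SD, n = 3), and changed by -0.24 in S134A-GR (limma adjusted p = 0.00338) and -0.10 in WT-GR cells (adjusted p = 0.155). Its relative BNIP3L changed by -0.15 in S134A-GR (adjusted p = 0.0897) and -0.22 in WT-GR cells (adjusted p = 0.00846). FAM162A, a mitochondrial protein linked to cell death under low oxygen, had -0.20 in S134A-GR and -0.12 in WT-GR, and AK4, an adenylate kinase of the mitochondrial matrix, 0.02 and -0.13, with none of these called. Without WT-GR Dex replicate 3 both were called lower in WT-GR cells, FAM162A at -0.19 and AK4 at -0.18 (limma adjusted p = 0.0267 and 0.0409). NDUFA4L2, related to a respiratory chain subunit, was not called at 0.99 ± 0.50 in S134A-GR and -0.35 ± 0.50 in WT-GR cells.

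Of the 4 collagen hydroxylases, 0 were called with Dex in S134A-GR cells, where 15.7% of all genes were, and 2 rose and 1 fell in WT-GR cells, where 27.9% of all genes were called, while no difference of their responses was called (adjusted p of 0.214 or above). P4HA2, a catalytic subunit of collagen prolyl hydroxylase, averaged 12650.3 ± 223 in S134A-GR Dex and 12046 ± 229 in S134A-GR vehicle, 10846 ± 518 in WT-GR Dex and 9697 ± 118 in WT-GR vehicle (SD, n = 3). Its change was 0.07 in S134A-GR and 0.16 in WT-GR cells (limma adjusted p = 0.0118), and for P4HA1, the other such subunit, -0.07 and -0.15, neither called. Without WT-GR Dex replicate 3 P4HA1 was called lower in WT-GR cells (-0.22, limma adjusted p = 0.00369). The lysyl hydroxylases differed in sign in WT-GR cells only. PLOD1 changed by -0.01 in S134A-GR and 0.18 in WT-GR cells (adjusted p = 0.0173), and PLOD2, whose product directs stable collagen cross-links, by -0.08 and -0.32 (adjusted p = 0.00168 in WT-GR). The WT-GR calls for P4HA2 and PLOD1 were lost without WT-GR Veh replicate 2 (adjusted p = 0.0529 and 0.0514) and with scaling by library size only (0.0925 and 0.066), and the PLOD1 call also without WT-GR Dex replicate 1 (0.0602). With only the compared groups in the fit neither P4HA2 nor PLOD1 was called (0.0882 and 0.0672).

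Of the other members, NDRG1 and PPFIA4 fell most. NDRG1, a cytoplasmic protein induced by hypoxia and other stresses, averaged 33287 ± 889 in S134A-GR Dex and 48990.2 ± 2269.9 in S134A-GR vehicle, 37884 ± 2671 in WT-GR Dex and 54590.0 ± 2018 in WT-GR vehicle (SD, n = 3). It fell by 0.56 ± 0.05 in S134A-GR (limma adjusted p = 3.76e-06) and by 0.53 ± 0.05 in WT-GR cells (adjusted p = 6.8e-06). PPFIA4, a liprin of the cell cortex and synapse, had 2557, 2675 and 2502 in the S134A-GR Dex libraries, 4224, 3992 and 4457 in the S134A-GR vehicle libraries, 2342, 2674 and 2216 in the WT-GR Dex libraries and 2977, 3516 and 3424 in the WT-GR vehicle libraries. Its Dex values were below vehicle in both genotypes, by -0.71 ± 0.08 in S134A-GR (adjusted p = 1.62e-05) and -0.46 ± 0.08 in WT-GR cells (adjusted p = 0.000828).

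RAB20, a small GTPase of endosomes, rose. It had 1267, 1226 and 1299.7 in the S134A-GR Dex libraries, 856, 1071 and 983 in the S134A-GR vehicle libraries, 2535, 2186 and 2085 in the WT-GR Dex libraries and 1805, 1889.7 and 1994 in the WT-GR vehicle libraries, with changes of 0.39 ± 0.09 in S134A-GR (limma adjusted p = 0.00835) and 0.25 ± 0.09 in WT-GR cells (adjusted p = 0.0498). The WT-GR call for RAB20 lay at the threshold and was lost without any 1 WT-GR vehicle library or WT-GR Dex replicate 1 or 2 (adjusted p of 0.0508 to 0.186), with the replicate block (0.0827) and with no filter on low values (0.0583). It was also lost with only the compared groups in the fit (0.0848) and with scaling by library size only (0.113). ANKRD37, an ankyrin repeat protein, changed by -0.33 in S134A-GR (adjusted p = 0.0288) and -0.26 in WT-GR (adjusted p = 0.0579), and TMEM45A, a transmembrane protein, by -0.24 (adjusted p = 0.0244) and -0.00 (adjusted p = 0.983). The S134A-GR call for ANKRD37 was lost without S134A-GR Veh replicate 1 or 2 or S134A-GR Dex replicate 1 or 3 (adjusted p of 0.0896 to 0.121), and that for TMEM45A without S134A-GR Veh replicate 2 or 3 or any 1 S134A-GR Dex library (0.0654 to 0.126). Without WT-GR Dex replicate 2 ANKRD37 was called lower in WT-GR cells (-0.31, limma adjusted p = 0.0414). ZNF395, a zinc finger protein, had 0.01 in S134A-GR and 0.17 in WT-GR cells (adjusted p = 0.0198), a WT-GR call lost without WT-GR Veh replicate 3 or WT-GR Dex replicate 1 (0.0561 and 0.0643). That call was also lost with only the compared groups in the fit (0.0947) and with scaling by library size only (0.106). GENCODE 29 gives 34.92% of the exon bases of ZNF395 to FBXO16 as well.

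A difference in Dex response between the genotypes was not called in limma for any of the 32 genes, which does not show that the responses were alike. In the test of the difference itself, S134A-GR response minus WT-GR response, limma called 0 of 32, where 0.414% of all genes were called, and edgeR with TMM called 0. DESeq2 called 5 of the 32, and 265 positive and 239 negative differences over all genes. In limma 13 had an unadjusted p under 0.05, 4 of them with a positive and 9 with a negative difference. The share of all genes under that p was not counted, so that the 13 cannot be set against it. The lowest limma adjusted p were those of BHLHE41 (0.46 ± 0.09, 0.0567), CA12 (0.30 ± 0.06, 0.0625), BHLHE40 (-0.28 ± 0.06, 0.0719) and IGFBP3 (-0.36 ± 0.08, 0.0843), the 4 genes that DESeq2 called together with CA9 (-0.32 ± 0.09, limma adjusted p = 0.139). BHLHE41 and CA12 had the larger fall in WT-GR cells, BHLHE40 had the larger fall in S134A-GR cells, and IGFBP3 had the larger rise in WT-GR cells. The differences of EGLN3 (0.43), PLOD2 (0.24), PLOD1 (-0.19), TMEM45A (-0.24), STC1 (-0.20) and PPFIA4 (-0.26) had adjusted p of 0.204, 0.214, 0.215, 0.239, 0.248 and 0.266. Those of NDRG1, VHL, EGLN1, KDM3A and CITED2 were small, at -0.03 ± 0.08, -0.01 ± 0.06, 0.02 ± 0.06, 0.05 ± 0.10 and 0.08 ± 0.10.

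The count of 0 depended on the tool, the scaling, the weighting of libraries and WT-GR Dex replicate 3. Without it limma called 7 of the 32 genes (BHLHE41, CA12 and PLOD2 with a positive difference, and BHLHE40, CA9, PLOD1 and IGFBP3 with a negative one), and 744 and 879 of all genes in place of 38 and 28. Leaving out WT-GR Dex replicates 2 and 3 leaves 1 WT-GR Dex library, replicate 1, that is assumed to vary like the others. The differences were then 0.42 for BHLHE41, 0.28 for CA12 and -0.35 for BHLHE40. With library weights limma called 8 of the 32, the same 7 with EGLN3, and 1413 positive and 1441 negative differences over all genes. Without WT-GR Dex replicate 3 alone the differences were 0.47 for BHLHE41, 0.32 for CA12 and -0.29 for BHLHE40, close to those in all libraries.

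S134A-GR cells had lower levels of most of these genes than WT-GR cells in either treatment. In Dex 19 of the 32 were lower and 6 higher, against 49.7% of all genes called, 26.3% lower and 23.4% higher. In vehicle 18 were lower and 8 higher, against 50.5% of all genes called, 26.7% lower and 23.8% higher. The median difference, S134A-GR minus WT-GR, was -0.31 in Dex and -0.18 in vehicle, with 0.01 over all genes in both. Called in either direction were 78.1% of the 32 in Dex and 81.2% in vehicle. Values of the genotypes did not overlap for 27 genes in Dex, where 52.4% of all genes did not, and for 28 in vehicle, where 64.3% did not. Lower in both treatments were 18 genes and higher in both were 5 (BHLHE41, P4HA1, P4HA2, STC1 and ANKRD37). The share of all genes called alike in both treatments was not counted. With scaling by library size only, 15 were lower and 9 higher in each treatment. Of the calls 37.5% were then higher, in place of 24% in Dex and 30.8% in vehicle. Over all genes 64.9% were higher in place of 47% in Dex, and 59.6% in place of 47.2% in vehicle. That scaling moved the median over all genes to 0.11 in Dex and 0.09 in vehicle, and the median of the 32 to -0.19 and -0.10.

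**Figure D3:**
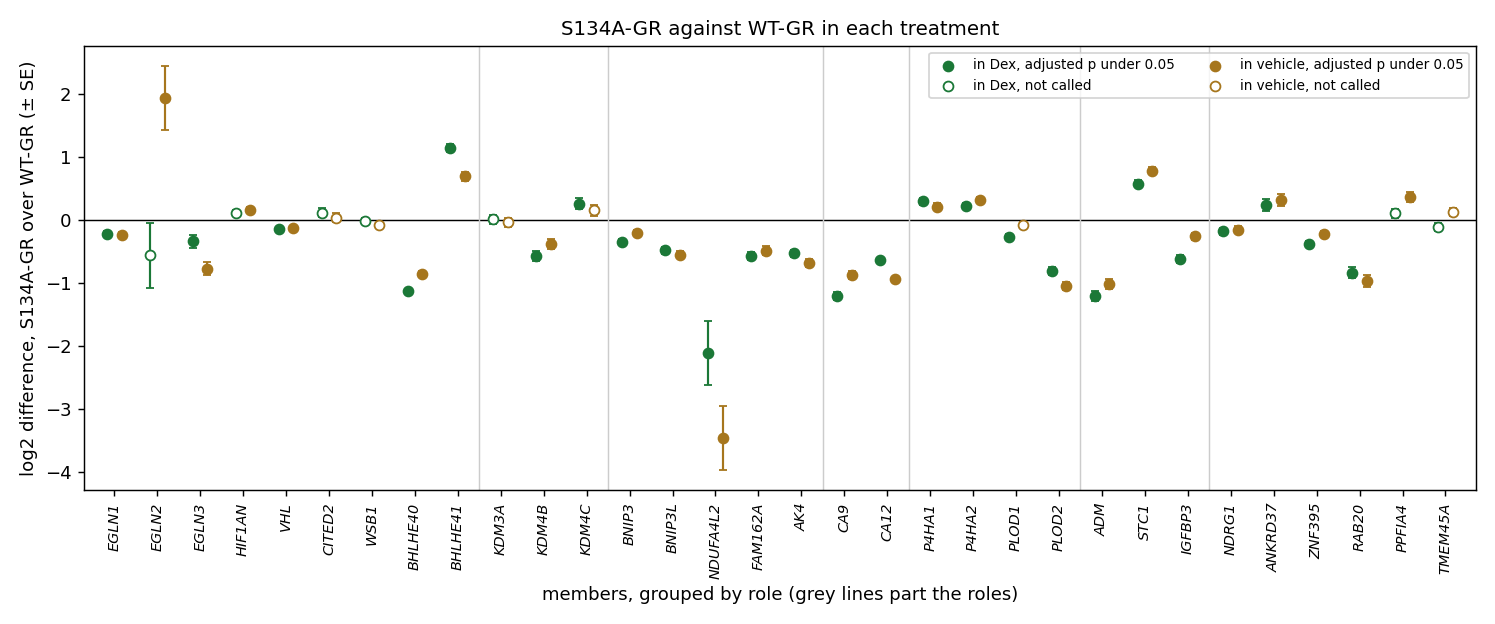
Log2 difference of S134A-GR over WT-GR for each of the 32 genes (points, ± SE from limma), in Dex in green left of vehicle in ochre, with filled points for adjusted p under 0.05. CA9, CA12, PLOD2, ADM, RAB20 and BHLHE40 lie at -0.64 or below in both treatments, and BHLHE41 and STC1 lie above 0.5.

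Both carbonic anhydrases were lower in S134A-GR cells, with no overlap in either treatment. CA9 differed by -1.20 ± 0.06 in Dex (limma adjusted p = 8.69e-09) and -0.88 ± 0.06 in vehicle (adjusted p = 1.37e-07), so that its S134A-GR means were 0.434 and 0.543 times the WT-GR means. CA12 differed by -0.64 ± 0.04 in Dex (adjusted p = 1.13e-07) and -0.94 ± 0.04 in vehicle (adjusted p = 3.4e-09). The library values given above show the order of the groups: for CA9 both S134A-GR groups lie below both WT-GR groups, and for CA12 the S134A-GR libraries lie lowest, the WT-GR Dex libraries between and the WT-GR vehicle libraries highest.

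With the mutant receptor all 5 mitochondrial genes were lower, in Dex and in vehicle, where 26.3% and 26.7% of all genes were called lower. AK4 had 9201, 8267 and 8335 in the S134A-GR Dex libraries, 8209, 8764 and 8520.4 in the S134A-GR vehicle libraries, 11844, 12321 and 13168 in the WT-GR Dex libraries and 14624, 13584 and 12789 in the WT-GR vehicle libraries. The lowest WT-GR library was above the highest S134A-GR library, by -0.53 ± 0.06 in Dex (limma adjusted p = 8.64e-06) and -0.68 ± 0.06 in vehicle (adjusted p = 8.92e-07) in the fit. NDUFA4L2 had 5.28, 3.50 and 9.42 in the S134A-GR Dex libraries, 0.943, 2.03 and 5.35 in the S134A-GR vehicle libraries, 27.3, 25.0 and 31.5 in the WT-GR Dex libraries and 42.4, 42.3 and 25.3 in the WT-GR vehicle libraries (normalized reads), from sums of 19, 9, 72 and 90 reads in S134A-GR Dex, S134A-GR vehicle, WT-GR Dex and WT-GR vehicle. It was nearly absent in S134A-GR cells, and its differences of -2.11 ± 0.50 in Dex (adjusted p = 0.00344) and -3.46 ± 0.50 in vehicle (adjusted p = 7.68e-05) depend on the pseudocount, at -1.37 and -2.05 with a pseudocount of 8. BNIP3L had -0.48 in Dex and -0.56 in vehicle, FAM162A -0.57 and -0.49, and BNIP3 -0.35 and -0.20, with adjusted p of 0.0034 or below. With scaling by library size only the BNIP3 difference in vehicle was -0.13 and not called (adjusted p = 0.0515).

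**Figure D4:**
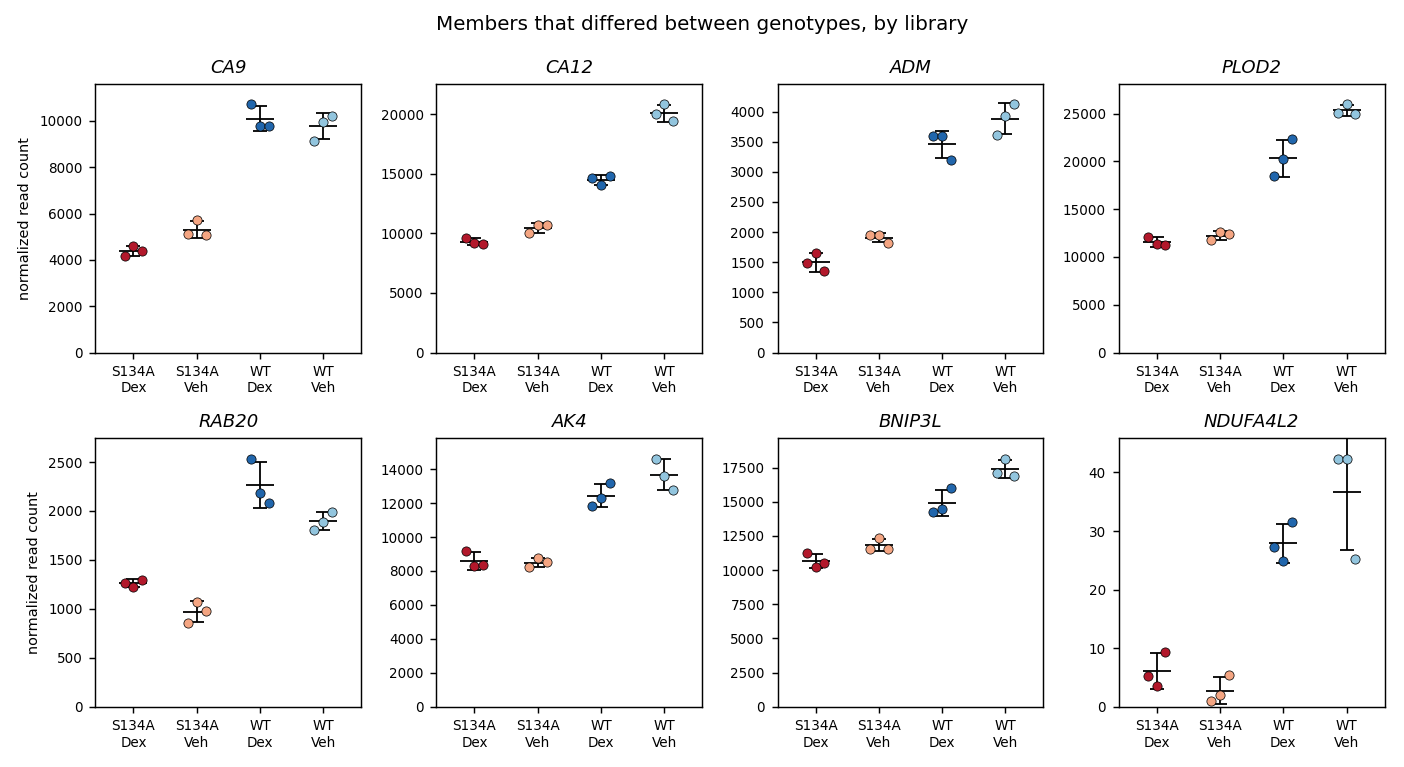
Normalized read counts in each library (points; bars, mean ± SD, n = 3) of 8 genes that were lower in S134A-GR cells, by group in the order S134A-GR Dex, S134A-GR vehicle, WT-GR Dex, WT-GR vehicle. In all 8 every S134A-GR point lies below every WT-GR point, and NDUFA4L2 is drawn on an axis that ends below 50.

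The collagen hydroxylases split. PLOD2 had 12136, 11320.0 and 11229.5 in the S134A-GR Dex libraries, 11749, 12584 and 12392 in the S134A-GR vehicle libraries, 18465, 20264 and 22331 in the WT-GR Dex libraries and 25084, 25972 and 24929.7 in the WT-GR vehicle libraries. It was lower in S134A-GR cells by -0.81 ± 0.06 in Dex (limma adjusted p = 2.15e-07) and -1.05 ± 0.06 in vehicle (adjusted p = 1.84e-08), with a wide gap between the genotypes. P4HA1 was higher in S134A-GR cells by 0.30 in Dex and 0.21 in vehicle, and P4HA2 by 0.22 and 0.31. PLOD1 differed by -0.27 in Dex (adjusted p = 0.000497) and -0.08 in vehicle (not called).

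Among the secreted factors, ADM and IGFBP3 were lower and STC1 higher in S134A-GR cells. ADM differed by -1.21 ± 0.08 in Dex (limma adjusted p = 6.46e-08) and -1.02 ± 0.08 in vehicle (adjusted p = 2.83e-07). IGFBP3 differed by -0.62 ± 0.06 in Dex (adjusted p = 1.78e-06) and -0.26 ± 0.06 in vehicle (adjusted p = 0.00223). STC1 differed by 0.58 ± 0.06 in Dex (adjusted p = 3.71e-06) and 0.78 ± 0.06 in vehicle (adjusted p = 2.32e-07). The groups did not overlap for any of the 3.

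Of the 9 genes of oxygen sensing and feedback, 4 were lower and 1 higher in S134A-GR cells in Dex, and 4 lower and 3 higher in vehicle. The share of all genes called was 49.7% in Dex and 50.5% in vehicle. The related repressors BHLHE40 and BHLHE41 went opposite ways. BHLHE40 differed by -1.13 ± 0.04 in Dex (limma adjusted p = 5.33e-10) and -0.85 ± 0.04 in vehicle (adjusted p = 5.93e-09), whereas BHLHE41 differed by 1.14 ± 0.06 (adjusted p = 1.8e-08) and 0.69 ± 0.06 (adjusted p = 1.67e-06). EGLN3 differed by -0.34 in Dex and -0.77 in vehicle, EGLN1 by -0.22 and -0.24, and VHL by -0.15 and -0.14. The call for EGLN3 in Dex was lost without S134A-GR Dex replicate 1 (-0.25, adjusted p = 0.0745) and without WT-GR Dex replicates 2 and 3 (-0.29, 0.125). It was also lost with library weights (-0.26, 0.0609) and with only the compared groups in the fit (0.0514). VHL was not called in Dex without WT-GR Dex replicates 2 and 3 (adjusted p = 0.0707), nor in vehicle without WT-GR Veh replicate 2 or S134A-GR Veh replicate 3 (0.0603 and 0.0699). With scaling by library size only, EGLN1 in Dex (-0.11), EGLN3 in Dex (-0.22, adjusted p = 0.1004) and VHL in both treatments (-0.04 and -0.06) were not called. HIF1AN had 0.11 in Dex (not called) and 0.16 in vehicle (adjusted p = 0.00692), and EGLN2 -0.56 (not called) and 1.93 (adjusted p = 0.00635), from few reads. CITED2, WSB1 and KDM3A were called in neither treatment, with differences between -0.09 and 0.12.

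Of the remaining members, RAB20 was lower in S134A-GR cells by -0.84 ± 0.09 in Dex (limma adjusted p = 5.44e-06) and -0.97 ± 0.09 in vehicle (adjusted p = 1.4e-06), although Dex raised it in both genotypes. KDM4B differed by -0.57 in Dex and -0.38 in vehicle, and ZNF395 by -0.39 and -0.23, all 4 called. NDRG1 differed by -0.18 in Dex and -0.16 in vehicle. The vehicle call for NDRG1 was lost without WT-GR Veh replicate 2 or 3 or S134A-GR Veh replicate 1 or 3 (adjusted p of 0.054 to 0.104), and both calls with scaling by library size only (-0.07 and -0.08). ANKRD37 differed by 0.24 in Dex and 0.31 in vehicle (adjusted p = 0.0475 and 0.0131). The ANKRD37 call in Dex was lost under 10 of the alternatives, among them without WT-GR Dex replicate 3 (0.16, adjusted p = 0.151) or any 1 S134A-GR Dex library (0.0624 to 0.146), and that in vehicle without S134A-GR Veh replicate 1 (0.0558). KDM4C was higher in Dex by 0.25 (adjusted p = 0.0259), a call lost without WT-GR Dex replicate 1 or 3 or S134A-GR Dex replicate 1 or 2 (0.0576 to 0.0901), and stood at 0.15 in vehicle. PPFIA4 had 0.10 in Dex (not called) and 0.36 in vehicle (adjusted p = 0.00196), and TMEM45A -0.11 and 0.13, neither called.

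The HIF subunits themselves are not among the 32 genes. HIF1A and EPAS1 were lower in S134A-GR cells, as were most of the 32, whereas EPAS1 rose with Dex. HIF1A, the oxygen-labile alpha subunit, had 33633, 30424 and 30557 in the S134A-GR Dex libraries, 28292, 29540.5 and 29578 in the S134A-GR vehicle libraries, 33321, 34520.1 and 38234 in the WT-GR Dex libraries and 37805, 38016 and 35038 in the WT-GR vehicle libraries. It was lower in S134A-GR cells by -0.16 ± 0.06 in Dex (limma adjusted p = 0.0294, groups overlapping) and -0.34 ± 0.06 in vehicle (adjusted p = 0.000237), and its Dex changes of 0.11 ± 0.06 in S134A-GR and -0.07 ± 0.06 in WT-GR cells were not called. EPAS1, the other main alpha subunit, had 5611, 5809 and 6039 in the S134A-GR Dex libraries, 3187, 3265 and 3274 in the S134A-GR vehicle libraries, 17058, 14703 and 16096 in the WT-GR Dex libraries and 11029, 10959.7 and 10294 in the WT-GR vehicle libraries. It rose with Dex by 0.84 ± 0.05 in S134A-GR (adjusted p = 7.29e-08) and 0.57 ± 0.05 in WT-GR cells (adjusted p = 4.55e-06), and with the mutant receptor it was lower by -1.45 ± 0.05 in Dex (adjusted p = 5.02e-10) and -1.73 ± 0.05 in vehicle (adjusted p = 1.25e-10). ARNT, their common partner, averaged 4857 ± 117 in S134A-GR Dex, 4551 ± 43.3 in S134A-GR vehicle, 4967 ± 368 in WT-GR Dex and 4749 ± 168 in WT-GR vehicle (SD, n = 3), with differences of -0.06 to 0.09 and no call.

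**Figure D5:**
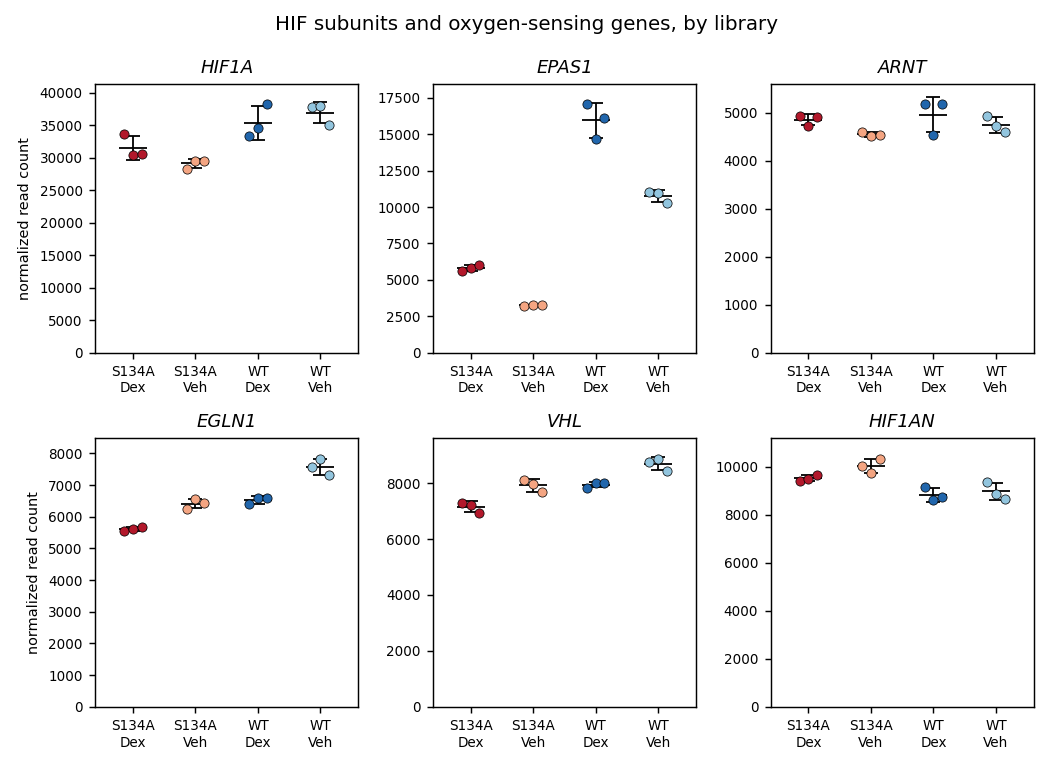
Normalized read counts in each library (points; bars, mean ± SD, n = 3) of HIF1A, EPAS1, ARNT, EGLN1, VHL and HIF1AN, by group in the order S134A-GR Dex, S134A-GR vehicle, WT-GR Dex, WT-GR vehicle. EPAS1 is lowest in the S134A-GR groups and higher with Dex in both genotypes, while ARNT stays between 4521 and 5179.6 in all 12 libraries.

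The rest of the pathway is given by list, to be read against the shares of all genes called, which were 15.7% with Dex in S134A-GR cells, 27.9% with Dex in WT-GR cells, and 49.7% in Dex and 50.5% in vehicle for S134A-GR against WT-GR cells. Of 6 tested HIF subunits and coactivators, 2 rose and 0 fell with Dex in each genotype (EPAS1 and ARNT2, with ARNT2 up by 0.74 in S134A-GR and 0.29 in WT-GR cells), and 3 were lower and 0 higher in S134A-GR cells in each treatment. HIF3A had means of 3.40, 0, 7.88 and 0 normalized reads in S134A-GR Dex, S134A-GR vehicle, WT-GR Dex and WT-GR vehicle and was not tested. Of the 4 subunits of the VHL ubiquitin ligase, 0 were called with Dex in S134A-GR cells (lowest adjusted p for CUL2 and ELOC, 0.117 and 0.455), and 2 rose and 1 fell in WT-GR cells, where CUL2 had -0.33 and ELOB 0.27. In S134A-GR against WT-GR cells 1 of these was lower and 1 higher in Dex, and 0 were lower and 2 higher in vehicle. Of 20 glycolytic HIF targets, 1 rose and 8 fell with Dex in S134A-GR cells, led by PFKFB4 (-0.53) and PFKFB3 (-0.59), and 4 rose and 7 fell in WT-GR cells, led by PFKFB3 (-0.62) and ENO2 (-0.36). In S134A-GR against WT-GR cells 15 of the 20 were lower and 1 higher in Dex, led by ENO1 (-0.65) and ALDOC (-0.82), and 14 were lower and 2 higher in vehicle, led by LDHA (-0.53) and ENO1 (-0.47). Of 13 tested other HIF targets, 3 rose and 6 fell with Dex in each genotype. The lowest adjusted p were those of ANGPTL4, a secreted regulator of lipoprotein lipase (3.17), and the matrix cross-linking enzyme LOX (1.61) in S134A-GR cells, and of ANGPTL4 (2.78) and the angiogenic factor VEGFA (-1.02) in WT-GR cells. In S134A-GR against WT-GR cells 8 of the 13 were lower and 1 higher in Dex, and 9 were lower and 0 higher in vehicle, led in both by VEGFA (-1.01 and -0.98) and the growth factor TGFA (-1.25 and -1.39). In the difference of responses these 4 lists held 1 call, that of LOX (0.69, limma adjusted p = 0.000677), in the last list. CXCR4 was too low to be tested. With Dex the median change was -0.10 in S134A-GR and 0.01 in WT-GR cells for the glycolytic targets and -0.13 and -0.07 for the other targets, with -0.02 over all genes. The median difference of S134A-GR from WT-GR cells was -0.39 in Dex and -0.22 in vehicle for the glycolytic targets and -0.28 and -0.46 for the other targets, with 0.01 over all genes.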

How the data were processed

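TruSeq mRNA libraries were read as 75-base pairs, per the labels' protocols. The authors deposited normalized signal values, 1 per gene and library: read counts divided by a size factor. Per the submitters' processing notes, FastQC 0.11.7, Subread, featureCounts and DESeq2 1.22.2 were used with hg38; for the aligner's settings, the annotation and the treatment of strand, the sources used here say nothing. In every library 100% of values were whole multiples of 1 read (within 0.01), so that reads were recovered, at 56362036 to 100559429 per library, and used for count tests. Each Dex file lists 26485 names for 19907 values. By line order its log2 values correlated with the vehicle mean across genes at r = 0.982 to 0.989, and by deposited name at -0.0056 to -0.0036, so that vehicle names were applied by line order.

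The main test was limma 3.58.1 in R 4.3.3 on log2(value + 1), its variance prior following the mean, over all 12 libraries with 1 coefficient per group, for the 15957 genes that reached a value of 10 in 3 or more libraries, Benjamini-Hochberg adjusted over all of them at 0.05, two-sided. On this scale the change of low genes comes out too small. Alternatives were edgeR 4.0.16 (TMM, and library size only) and DESeq2 1.42.0 on recovered reads, a pseudocount of 8, no filter, only the compared groups, the replicate number as a block, library weights, each library left out, WT-GR Dex replicates 2 and 3 left out, and the deposited names. The fits were tested on simulated data.

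The 32 genes and the lists were chosen with earlier results of these data known. All 32 are reported with Dex in each genotype and between genotypes in each treatment. In the difference of responses all 32 are counted, but sizes are given for only some of them. Library values are given for those called with a fitted change of at least 1.5-fold and for EGLN1, EGLN2, EGLN3 and HIF1A, HIF1A, EPAS1 and ARNT are always given, and other pathway genes are counted by list, with the 2 lowest adjusted p named. Exon lengths and overlaps are from GENCODE 29, and promoter windows from RefSeq, GRCh38.p14. Protein sequences were not used here. The markers PGR and CD3E were not analysed here, and 1 gene of the list of other HIF targets and 1 leukocyte marker are not reported here.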

Additional observations from a re-analysis of the deposited data

Results flagged for a closer look

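EGLN2 had Dex values on opposite sides of the vehicle values in the 2 genotypes. All 3 S134A-GR Dex values (5.28, 7.88 and 6.59 normalized reads) lay below the S134A-GR vehicle values (8.48, 11.2 and 12.5), and all 3 WT-GR Dex values (10.2, 8.98 and 11.2) lay above the WT-GR vehicle values (1.63, 4.23 and 1.05). The difference of the log2 responses was -2.49 ± 0.72 (SE) and did not pass in limma (adjusted p = 0.147). It was -1.18 with a pseudocount of 8 (adjusted p = 0.154) and -2.72 in edgeR with TMM (adjusted p = 0.151). The gene had 1 to 14 reads in a library, and the part of reads from the overlapping RAB4B-EGLN2 was not tested.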

How the results depend on the processing

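No called change of the 32 genes turned its direction under any alternative with the restored names. Of the calls, 11 of 18 with Dex in S134A-GR cells, 13 of 21 with Dex in WT-GR cells, 19 of 25 between genotypes in Dex and 22 of 26 in vehicle were kept under all of these. Rises with Dex in WT-GR cells numbered 8, but 3 with scaling by library size only and 2 with only the compared groups in the fit. Rises in S134A-GR cells numbered 3, and 5 with library weights. Genes with a positive and a negative difference of responses numbered 0 and 0, but 2 and 3 in DESeq2, 2 and 0 with library size only, 4 and 4 under library weighting, and 3 and 6 without WT-GR Dex replicates 2 and 3. With the Dex names as deposited the counts were 20 falls in WT-GR and 7 rises in S134A-GR cells, 11 positive and 6 negative differences, and 8 genes lower in S134A-GR than WT-GR cells in Dex.

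With 1 library left out, rises and falls with Dex ranged over 3 to 3 and 8 to 12 in S134A-GR and over 4 to 8 and 11 to 16 in WT-GR cells, positive and negative differences over 0 to 3 and 0 to 4, higher and lower genes in S134A-GR against WT-GR over 4 to 6 and 18 to 20 in Dex and 7 to 8 and 16 to 18 in vehicle.

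Same-numbered replicates did not deviate together (correlations of -0.085 to 0.055, 0 of 18 over 0.1). Of 12 libraries 3 were closest to their own number. The values thus give no sign of pairing by number, but cannot show whether same-numbered samples were grown or prepared together. With the replicate number as a block 3 genes rose and 15 fell with Dex in S134A-GR, 6 rose and 13 fell in WT-GR, 0 and 0 differed in response, 5 were higher and 19 lower in S134A-GR than WT-GR in Dex, and 8 and 18 in vehicle.

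Over all genes, 38 positive and 28 negative differences became 265 and 239 in DESeq2, 15 and 10 with the block, 1413 and 1441 under library weighting, 1170 and 1395 without WT-GR Dex replicates 2 and 3, and 14 to 744 and 10 to 879 with 1 library left out. The 2216 rises and 2239 falls in WT-GR became 1253 and 1277 with only the compared groups, 3483 and 3630 with weights, 1448 rises with library size only, and 1465 falls without WT-GR Veh replicate 2. The 1275 rises and 1238 falls in S134A-GR became 2438 and 2678 with weights, and 1897 falls with only the compared groups. The 3804 genes higher in S134A-GR vehicle became 5856 with weights. The causes were not tested. Depth limits EGLN2 and NDUFA4L2, whose sizes depend on the pseudocount, and 3 libraries a group limit all calls near the threshold.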
